A study of Mus musculus with 9 samples.

Results

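The genes described here are the 215 protein-coding mouse genes whose symbol is Zfp followed by digits only and which lie on chromosomes 2, 7, 8, 10, 13 and 17, among 55401 genes in the count table and 365 such Zfp genes in the genome. They were chosen by name, gene type and chromosome (GENCODE vM21 annotation, mm10 genome), with no use of their counts. Chromosome 7 held 89 of them, chromosome 17 held 41, chromosome 13 held 31, chromosome 2 held 25, chromosome 8 held 24 and chromosome 10 held 5. Runs of at least 4 members with gaps of at most 500 kb held 156 of the 215. The libraries were made from testis poly(A) RNA of wild-type (WT) male mice of the ICR strain, and the age of the mice is not given in the sources used here. There were 3 libraries of the RNA before precipitation (input), 3 of RNA bound by control immunoglobulin (IgG) and 3 of RNA recovered with an antibody against N4-acetylcytidine, or ac4C (acRIP). All 9 were made by Smart-seq2, in which cDNA is primed from the poly(A) tail and amplified, and an in vitro made β-globin RNA probe carrying ac4C was put into the RNA before precipitation. The comparisons ask which Zfp transcripts were recovered with the ac4C antibody beyond both the control antibody and their abundance in the testis.

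Most Zfp genes encode proteins with a string of C2H2 zinc fingers, in which pairs of cysteines and histidines hold a zinc ion and the residues between them contact DNA. Many also carry a KRAB box, which recruits the corepressor TRIM28 and through it the histone methyltransferase SETDB1, so that the bound DNA, often a transposon, is silenced. The family has grown by tandem duplication, which leaves neighbouring copies of similar sequence in clusters. N4-acetylcytidine is a cytidine with an acetyl group, placed on RNA by the acetyltransferase NAT10.

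By patterns searched in the coding sequences, 151 members had a KRAB box, and the number of C2H2 fingers ranged from 0 to 33 with a median of 11. The coding DNA of a single finger of 28 codons is printed for 8 members, each read from GRCm38 on the strand of the gene and within a coding exon, with the codons of the 2 cysteines and 2 histidines in capitals. Zfp14 (chr7:30039052-30039135, minus strand) and Zfp583 (chr7:6317292-6317375, minus strand) are shown because their counts rose most clearly in acRIP. Zfp677 (chr17:21397241-21397324, plus strand) and Zfp940 (chr7:29845374-29845457, minus strand) are shown because they had no acRIP count. Zfp51 (chr17:21463854-21463937, plus strand) and Zfp977 (chr7:42580620-42580703, minus strand) are shown because both precipitations recovered little of them. Zfp966 (chr2:175921196-175921279, minus strand) and Zfp968 (chr2:175382283-175382366, plus strand) are shown because every 100-base window of their exons has another exact copy in the genome.
Zfp14: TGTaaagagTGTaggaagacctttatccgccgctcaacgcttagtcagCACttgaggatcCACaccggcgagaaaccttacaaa
Zfp583: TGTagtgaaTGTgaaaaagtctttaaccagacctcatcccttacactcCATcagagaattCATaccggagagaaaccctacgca
Zfp677: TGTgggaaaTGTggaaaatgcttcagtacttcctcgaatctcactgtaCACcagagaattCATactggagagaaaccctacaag
Zfp940: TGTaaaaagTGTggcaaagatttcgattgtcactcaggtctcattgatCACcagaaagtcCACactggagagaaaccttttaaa
Zfp51: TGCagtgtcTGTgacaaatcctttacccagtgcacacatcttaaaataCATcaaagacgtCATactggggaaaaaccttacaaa
Zfp977: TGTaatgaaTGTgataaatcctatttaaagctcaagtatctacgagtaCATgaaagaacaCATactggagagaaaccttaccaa
Zfp966: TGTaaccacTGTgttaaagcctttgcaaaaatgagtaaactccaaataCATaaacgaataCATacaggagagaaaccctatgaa
Zfp968: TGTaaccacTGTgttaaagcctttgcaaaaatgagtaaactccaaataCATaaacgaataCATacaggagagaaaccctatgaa
The finger of Zfp966 equalled that of Zfp968 in all 84 bases. The finger of Zfp14 shared 54 of 84 bases with that of Zfp583 and 49 with that of Zfp677, and that of Zfp940 shared 45 with that of Zfp51. That of Zfp583 shared 59 with that of Zfp51, the highest among pairs of the 4 fingers from Zfp14, Zfp583, Zfp940 and Zfp51.

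Library totals on genes lay between 22023925 and 31340090 for input, between 14647542 and 18786779 for IgG and between 16025779 and 18639134 for acRIP. Between 81.9% and 84.3% of the counts from 1 to 20 were even, as when both mates of a pair are counted, so fewer independent fragments lie behind a value than its count. Nothing in the sources used here says whether the 3 libraries of a group came from separate mice or separate precipitations, so p-values measure the spread between these libraries, which may be technical. Only uniquely mapped reads were counted and the use of strand is not stated: 61 members had an exon base inside an exon of another gene, 24 of them over more than 10% of their exon bases. The summed FPKM (counts divided by merged exon length in kb and by the library total in units of 1e+06 counts) of 6 spermatid markers lay between 26260 and 33640 in all libraries, as for testis. Of the other marker lists, the 3 measured erythroid genes summed to between 7.98 and 9.29 FPKM in input, between 5.93 and 6.82 in IgG and between 0.759 and 0.935 in acRIP, and 3 of 4 macrophage genes were lower in acRIP than in input while C1qa was higher, so that the 4 summed to between 11.4 and 13.1 FPKM in input, between 16.8 and 17.4 in IgG and between 21.8 and 25.0 in acRIP. The 3 hepatocyte genes had no acRIP count and at most 0.577 FPKM in any library, and 2 of the 4 epididymis genes, Lcn5 and Adam7, had no count at all, while Crisp1 had 70, 86 and 66 counts in input, 26, 52 and 40 in IgG and 6, 2 and 0 in acRIP. The part of these cell types in the results was not tested.

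In input RNA the members were mostly weakly expressed. Their median input level was 0.994 FPKM, and 107 of the 215 reached 1 FPKM, as did 10510 of the 21897 protein-coding genes. Among tested genes the median was 1.17 FPKM for members and 2.69 FPKM for protein-coding genes, while over all genes, untested ones included, the protein-coding median was 0.855 FPKM. In whole-testis RNA, fewer cells with a transcript and less of it per cell cannot be told apart. The highest member was Zfp110, a KRAB protein on chromosome 7 known as an interactor of the p75 neurotrophin receptor, with 45, 44.2 and 48.5 FPKM in the input libraries. It was followed by Zfp541, a germ cell protein that works with histone deacetylases in pachytene spermatocytes, with 28.3, 27.3 and 27.8 FPKM. Zfp13 on chromosome 17 had a mean of 19.2 FPKM, Zfp367 on chromosome 13 had 17.8 ± 0.299 (SD, n = 3) and Zfp511 on chromosome 7 had 17.8 ± 1.49. The order of Zfp367 and Zfp511 was therefore within their spread, as was that of Zfp51 (12.5 ± 0.588) and Zfp330 (12.5 ± 1.07), a nucleolar protein and the highest member on chromosome 8. Zfp944 (13.7 FPKM), the imprinting regulator Zfp57 (11.5 FPKM) and Zfp428 (11.3 FPKM) completed the 10 highest. The highest on chromosome 2 was Zfp217, whose human counterpart is amplified in breast cancer, at 10.8 FPKM, and on chromosome 10 it was Zfp938 at 5.99 FPKM.

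At the other end, 6 members had no count in any library. Of these, Zfp965, Zfp967, Zfp968 and Zfp973 lie on chromosome 2, and at least 98.8% of the 100-base exon windows of each occur elsewhere in the genome. The sequenced read pairs were longer than these windows. Whether the transcripts were absent or their reads could not be assigned was not tested. Zfp966 and Zfp969, with 1 count each in all 9 libraries together, also had every window repeated. Zfp82 on chromosome 7 and Zfp935 on chromosome 13 also had no count. Few of their windows were repeated (0.0% and 3.55%), but 34.2% of the exon bases of Zfp82 and 100% of those of Zfp935 lie in same-strand exons of other genes. The median share of repeated windows over the 215 members was 0.0%, and 12 members exceeded 50%. Among members described further on, the share was 33.9% for Zfp114, 33.7% for Zfp59, 31.8% for Zfp970 and 67.3% for Zfp97, so uniquely mapped reads may miss part of their transcripts. A total of 192 members passed edgeR's filter on low counts and were tested.

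The members together took 0.239%, 0.241% and 0.251% of the counts in the input libraries, 0.229%, 0.226% and 0.227% in IgG and 0.202%, 0.199% and 0.207% in acRIP. The 3 groups did not overlap, and acRIP was lowest. Per 1e+06 counts on protein-coding genes the acRIP libraries were again lowest, with 2485, 2464 and 2518 counts, while the IgG libraries (2620 to 2650.5) lay inside the input range of 2615 to 2749. The members with a KRAB box took 0.131%, 0.134% and 0.142% of counts in input, 0.0982%, 0.0968% and 0.101% in IgG and 0.0768%, 0.0749% and 0.0801% in acRIP. The 64 members without a KRAB box took less in input (0.108%, 0.107% and 0.109%) than in IgG (0.131%, 0.129% and 0.125%) or acRIP (0.125%, 0.125% and 0.127%), and their IgG and acRIP ranges overlapped. So members with a KRAB box held the larger share in input and the smaller share in both precipitations.

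**Figure D1:**
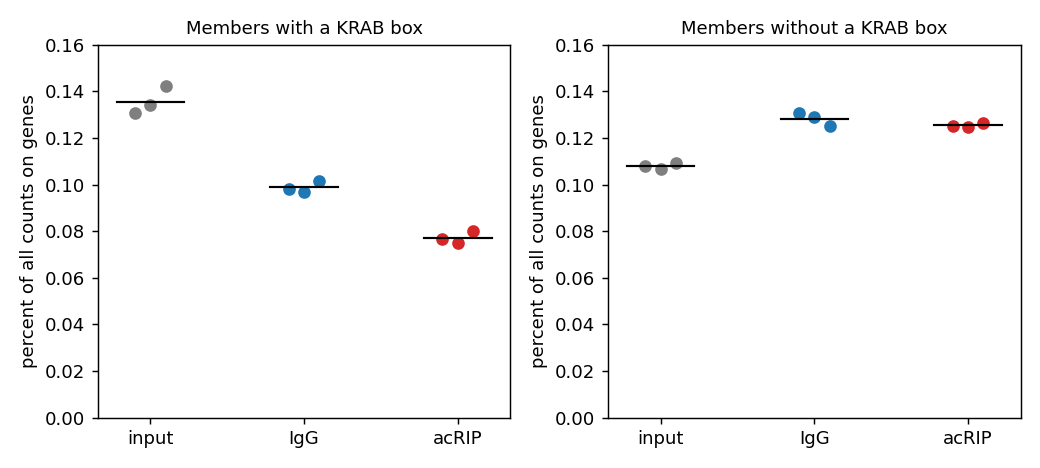
Percent of all counts on genes taken by the 151 members with a KRAB box (left) and the 64 without (right), in each of the 9 libraries. Points are libraries and bars are means of 3, on axes that start at 0. The KRAB members fall from input to IgG to acRIP, and the others lie lowest in input.

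A gene was called when edgeR's quasi-likelihood test gave a Benjamini-Hochberg adjusted p under 0.05 over the 22510 genes tested and its fold change exceeded 2. Between acRIP and IgG, 22 of the 192 tested members rose, which is 11.5% and equal to the 11.5% of all tested genes, and 69 fell, which is 35.9% against 20.9% of all tested genes. Between acRIP and input, 27 members rose (14.1%, against 17.7%) and 85 fell (44.3%, against 22.9%). Against both at once, 11 members were higher in acRIP (5.73%, against 7.88%) and 65 were lower (33.9%, against 17% of all tested genes). On the log2 scale the tested members had a median of -0.26 against IgG and -0.73 against input, beside -0.09 and -0.10 for all tested genes. With the members that had no count in a group set at their bound, the medians were -0.25 and -0.72. Since a member seen mainly in input passed the filter because of it, these shares are given by mean count too. Of members with a mean of 300 counts or more over the 9 libraries, 7 of 42 were lower than both (16.7%, against 2.56% of other protein-coding genes in that range). By edgeR or by DESeq2, 0 of these 42 were higher than both, and only 0.553% of the other protein-coding genes were by edgeR. In the higher direction, 9 of the 42 had an unadjusted p under 0.05 in both comparisons. From 100 to 300 counts, 16 of 55 were lower (29.1%, against 13.3%) and 4 were higher (7.27%, against 6.19%). From 30 to 100 counts, 19 of 51 were lower (37.3%, against 27.3%) and 3 were higher (5.88%, against 14.5%). Below 30 counts, 23 of 44 were lower, a share of 52.3% against 48.3%, and 4 were higher (9.09%, against 12.3%).

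Among the 11 members whose acRIP level exceeded both IgG and input, 9 have a KRAB box and 7 lie on chromosome 7, 2 on chromosome 2 and 1 each on chromosomes 8 and 13. Of the 192 tested members, 132 have a KRAB box and 81 lie on chromosome 7. In each of the 11 the acRIP libraries lay above every IgG and input library after scaling by library size. The call on these same libraries makes this likely, so it is no further support. The largest with well-measured counts was Zfp14, a KRAB protein with 13 fingers (ENSMUSG00000053985.10, chr7:30036359-30051380), with 0.863, 0.862 and 1.14 FPKM in input, 0.275, 0.582 and 0.619 in IgG and 4.09, 3.58 and 3.43 in acRIP. On the log2 scale it rose by 2.93 ± 0.25 (SE) over IgG (edgeR adjusted p = 2.2e-11) and 2.04 ± 0.22 over input (adjusted p = 1.5e-09). Zfp583, a KRAB protein with 12 fingers (ENSMUSG00000030443.16, chr7:6315660-6331285), had 1.84, 1.47 and 1.35 FPKM in input, 0.456, 0.592 and 1.06 in IgG and 5, 5.12 and 4.17 in acRIP. It rose by 2.79 ± 0.24 over IgG (adjusted p = 2.1e-11) and by 1.69 ± 0.21 over input (adjusted p = 1.8e-08) on the log2 scale. Both transcripts were thus abundant in acRIP and scarcest in IgG.

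Zfp383 and Zfp74, in the same cluster as Zfp14 and with a KRAB box, rose less than Zfp14 and Zfp583 over IgG and, over input, by 1.71 ± 0.29 and 1.95 ± 0.33, close to Zfp583. Zfp383 had 0.716, 0.679 and 0.449 FPKM in input, 0.681, 0.763 and 0.369 in IgG and 2.18, 2.11 and 1.49 in acRIP. Zfp74 had 0.215, 0.194 and 0.272 FPKM in input, 0.170, 0.227 and 0.287 in IgG and 0.687, 0.972 and 0.826 in acRIP. Their log2 fold changes over IgG were 1.72 ± 0.30 and 1.90 ± 0.34 (edgeR adjusted p = 1.3e-05 and 1.4e-05), while IgG and input differed by -0.01 ± 0.32 and 0.05 ± 0.35. Zfp931, a KRAB member on chromosome 2, rose by 1.16 ± 0.30 over IgG and 1.18 ± 0.29 over input. The remaining pair have no KRAB box: Zfp770 rose by 1.11 ± 0.21 over IgG and 1.36 ± 0.20 over input, and Zfp865 by 1.21 ± 0.24 and 1.33 ± 0.24. Their call over IgG ended without a single IgG library, at a log2 fold change of 0.97 without IgG library 3 for Zfp770 and of 0.998 without IgG library 1 for Zfp865, and 28.4% of the exon bases of Zfp865 lie in exons of other genes.

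The other 4 had few counts outside acRIP. Zfp459 on chromosome 13 had 10, 31 and 6 counts in input, 2, 0 and 2 in IgG and 60, 44 and 84 in acRIP, a ratio to IgG of 49.2 with a 95% counting interval of 18.9 to 182.0. Zfp551 had 8, 12 and 0 counts in input, 2 in each IgG library and 32, 34 and 50 in acRIP, a ratio to IgG of 20.2 (9.02 to 56.3). Zfp791, the member called on chromosome 8, had 17, 17 and 16 counts in input, 0 in every IgG library and 30, 62 and 28 in acRIP. Its acRIP level was at least 13.5-fold that in IgG, taking 3 counts per library as the limit that a count of 0 allows, or 6.77-fold if 3 read pairs gave 6 counts, and it rose by 1.84 ± 0.52 over input on the log2 scale (edgeR adjusted p = 0.0022). Zfp114 had 2, 4 and 8 counts in input, 2, 4 and 6 in IgG and 30, 14 and 36 in acRIP. These intervals and those given further on cover counting error only and take each count as an independent fragment. They are too narrow if both mates of a pair were counted. Of the exon bases of Zfp459, 12.5% lie in an exon of an opposite-strand gene.

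**Figure D2:**
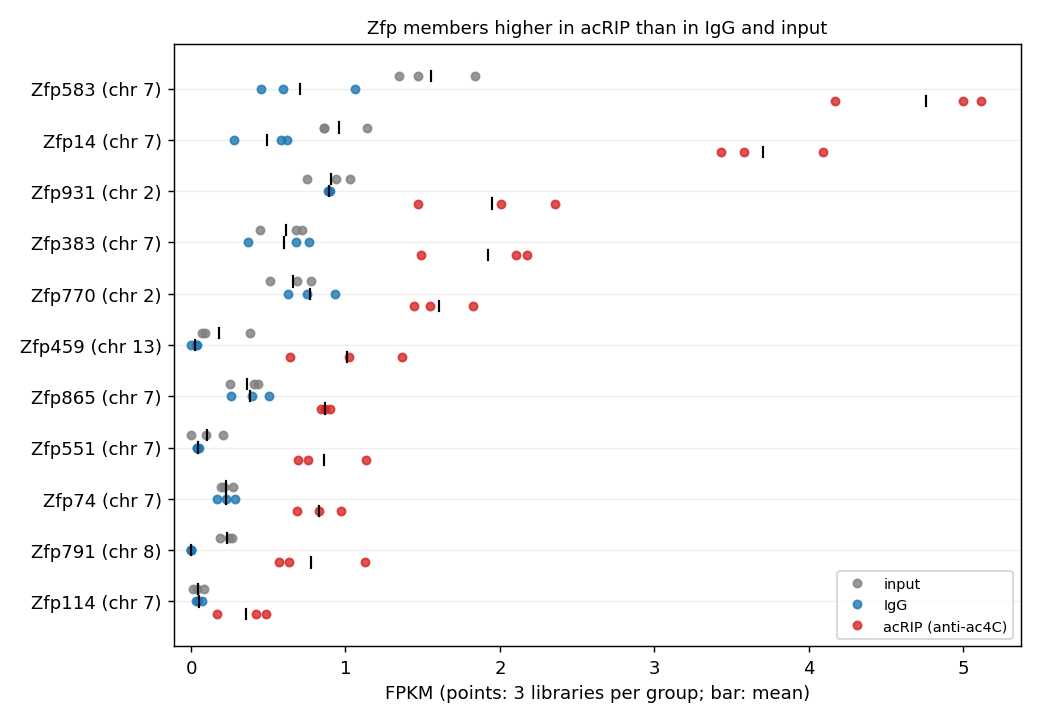
FPKM of the 11 members higher in acRIP than in IgG and input, with points for the 3 libraries of each group and bars for the mean, on a linear axis. The acRIP points of each gene lie above its IgG and input points, which the choice of called genes makes likely, and Zfp583 and Zfp14 reach between 3.43 and 5.12 FPKM.

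By a ratio of mean FPKM + 1 over 2 against both IgG and input, with limma's unadjusted p under 0.05, 2 members passed, Zfp14 (ratios 3.15 and 2.4) and Zfp583 (3.38 and 2.26), while 1.97% of the 35699 genes with any count did. Of the 21897 protein-coding genes, 2906 of which had no count, 164 passed. Adding 1 lowers the ratio of genes with low levels, and its part in these counts was not tested.

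A further 11 members were called higher than IgG and not than input, of the 22 higher than IgG among 192 tested. Of all 22510 tested genes, 2590 were higher than IgG, and 1774 of these were higher than input too. Zfp712, the first member of the large cluster on chromosome 13, had 1.70, 1.54 and 1.85 FPKM in input, 0.551, 0.563 and 0.651 in IgG and 2.55, 2.83 and 2.82 in acRIP. It rose by 2.26 ± 0.21 over IgG (edgeR adjusted p = 1.1e-10), and its difference from input was 0.76 ± 0.18. Zfp566 had 10, 30 and 8 counts in input, 2 in each IgG library and 28, 8 and 32 in acRIP, a ratio to IgG of 11.9 (95% counting interval 5.18 to 33.5). Zfp335, a protein needed in neural progenitors, rose by 1.47 ± 0.26 over IgG (adjusted p = 1e-05) with 28.3% of its exon bases in exons of other genes. Zfp36, which encodes tristetraprolin, a CCCH-type protein that binds AU-rich mRNA and has no C2H2 finger, had 0.607, 0.864 and 0.961 FPKM in input, 0.689, 0.583 and 0.775 in IgG and 1.62, 1.45 and 1.48 in acRIP. It rose by 1.2 ± 0.27 over IgG (adjusted p = 0.00032) and lay just under the fold threshold over input at 0.99 ± 0.26.

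Of the 65 members lower than both other groups, 53 have a KRAB box, as do 132 of the 192 tested members, and 21 had no count in any acRIP library. Of the 177 members with at least 10 counts in every input library, 18 (10.2%) had 0 counts in all 3 acRIP libraries, against 6.83% of all genes with such input counts and 5.73% of the protein-coding ones, and 3 of the 177 (Zfp790, Zfp970 and Zfp791) had 0 in all IgG libraries. With a KRAB box the acRIP share was 15 of 121, and without it 3 of 56. The most abundant of the 18 was Zfp677, a KRAB protein with 16 fingers on chromosome 17, with 158, 122 and 152 counts in input, 60, 86 and 108 in IgG and 0 in each acRIP library. Its acRIP level was below input by at least 31.3-fold and below IgG by at least 26.6-fold (edgeR adjusted p = 1.2e-13 and 2.7e-12), or 15.6-fold and 13.3-fold if 3 read pairs gave 6 counts. Such bounds rest on sequenced counts. The paper states that input RNA was diluted to a fixed concentration, while IgG and acRIP RNA was too scarce to measure before amplification. Loss of molecules before amplification was not tested. Zfp940, in the chromosome 7 cluster that also holds Zfp14, had 168, 158 and 160 counts in input, 50, 90 and 41 in IgG and 0 in acRIP, at least 35.4-fold below input and 19.1-fold below IgG. Zfp825 on chromosome 13 had 64, 70 and 77 counts in input and 22, 24 and 38 in IgG, at least 15.6-fold and 8.85-fold above acRIP.

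Among the rest of the 18, the bounds were between 3.35-fold and 18.9-fold below input for those tested. Against IgG the bound was only 1.09-fold for Zfp831 and 1.48-fold for Zfp112. Their calls over IgG thus rest on the fitted fold change, and a fall of over 2-fold is not shown by the bound. Zfp959 had nearly the same counts in IgG (34, 43 and 34) as in input (35, 54 and 51), and its acRIP level was below IgG by at least 11.8-fold. Zfp983 likewise had 37, 24 and 29 counts in IgG and 50, 52 and 37 in input. For Zfp64, a zinc finger protein without a KRAB box, the input libraries held 64, 42 and 36 counts and the IgG libraries 22, 25 and 23. In Zfp553 the IgG libraries already held less, with 16, 4 and 28 counts against 140, 66 and 68 in input. Zfp790 and Zfp970 had 0 counts in IgG as well, so that acRIP and IgG could not be compared, and Zfp790 was at least 9.74-fold lower in IgG than in input. Zfp948, Zfp97, Zfp963, Zfp831, Zfp112, Zfp773, Zfp811 and Zfp429 held between 14 and 76 counts in input, the call of Zfp831 over IgG was lost without IgG library 2 (edgeR adjusted p = 0.0586), and 40.8% of the exon bases of Zfp963 lie in exons of another gene. Zfp619, the member with 33 fingers, did not pass the filter and was not tested, with 24, 30 and 10 counts in input and 4, 4 and 9 in IgG.

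**Figure D3:**
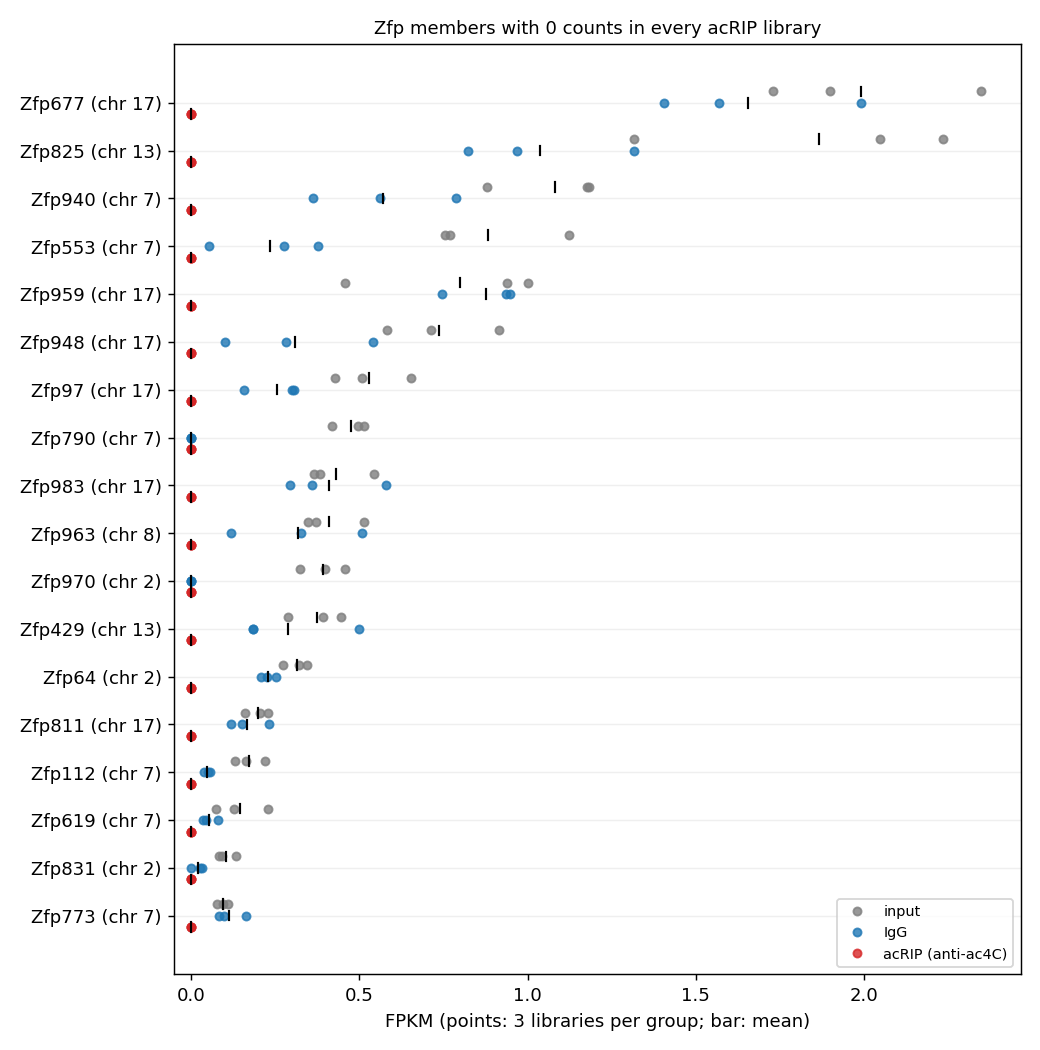
FPKM of the 18 members with 0 counts in every acRIP library and at least 10 counts in every input library. Points are the 3 libraries of each group and bars the mean, on a linear axis. The acRIP points all lie at 0, while Zfp677 has up to 2.35 FPKM in input and up to 1.99 in IgG.

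The other 44 members lower than both kept some acRIP counts, and those with a mean of at least 300 counts, named here after their values were seen, were Zfp54, Zfp81, Zfp169, Zfp748, Zfp759, Zfp788 and Zfp942, all with a KRAB box. Zfp81 on chromosome 17 had 6.01, 5.54 and 6.91 FPKM in input, 4.77, 4.47 and 4.36 in IgG and 0.809, 0.917 and 0.869 in acRIP. It fell by 2.33 on the log2 scale from IgG (edgeR adjusted p = 6e-16) and by 2.75 from input. Zfp54, in the large cluster on the same chromosome, had 9.66, 11.3 and 11.1 FPKM in input, 6.39, 7.57 and 9.42 in IgG and 1.67, 1.27 and 1.43 in acRIP. Zfp184 on chromosome 13, also picked after its values were seen, with 356, 294 and 310 counts in input, 156, 209 and 217 in IgG and 14, 22 and 16 in acRIP, stood at -3.41 ± 0.22 over IgG on the log2 scale (adjusted p = 8e-14). In these 3 genes every acRIP library lay below every IgG library, and IgG over input was -0.41, -0.41 and -0.17, under the fold threshold. Zfp748 differed in that IgG was already lower than input, by -1.16 ± 0.12, and acRIP lower again, by -1.34 ± 0.13.

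For a number of members IgG and acRIP stood together apart from input. Between IgG and input, 14 tested members rose (7.29%, against 13.5% of all tested genes) and 31 fell (16.1%, against 7.22%). Of the 85 members lower in acRIP than in input, 20 were also lower in IgG than in input, an overlap not counted over all genes. Of the 27 members that rose over input, 16 did not rise over IgG. Among all tested genes 3984 rose over input and 1774 of them rose over IgG too, so such genes were common outside the members as well. Zfp51, a KRAB protein with 19 fingers, had 11.9, 12.5 and 13.1 FPKM in input, 3.08, 4.36 and 3.72 in IgG and 4.12, 2.92 and 3.15 in acRIP. It was lower than input in acRIP by -1.80 ± 0.14 (edgeR adjusted p = 5e-13) and in IgG by -1.71 ± 0.14, and the IgG and acRIP libraries overlapped. Zfp57, which keeps methylation at imprinted genes, had 12.5, 11 and 10.9 FPKM in input, 4.40, 4.33 and 4.49 in IgG and 3.51, 4.21 and 3.59 in acRIP. Its log2 fold changes were -1.53 ± 0.11 for acRIP over input, -1.36 ± 0.11 for IgG over input and -0.17 ± 0.11 for acRIP over IgG (adjusted p = 0.19). Zfp977 on chromosome 7 had 121, 112 and 127 counts in input, 4, 2 and 0 in IgG and 4, 6 and 4 in acRIP, the lowest called member in IgG over input whose IgG libraries were not all 0, at a log2 fold change of -5.28 ± 0.54.

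In the opposite direction, Zfp318, a regulator of IgD expression in B cells, had 2.15, 2.34 and 2.25 FPKM in input, 7.72, 8.14 and 7.26 in IgG and 8.83, 7.98 and 8.88 in acRIP. It rose by 2.01 ± 0.06 in acRIP over input (edgeR adjusted p = 6.2e-23) and by 1.81 ± 0.06 in IgG over input, and acRIP exceeded IgG by 0.20 ± 0.06, under the fold threshold. Zfp131 on chromosome 13, a BTB zinc finger protein, rose by 1.48 ± 0.10 in acRIP over input, with 0.94 ± 0.10 in IgG over input and 0.54 ± 0.10 in acRIP over IgG. Zfp428 had 12.1, 10.5 and 11.2 FPKM in input, 18, 18 and 15 in IgG and 22.6, 23.3 and 20.9 in acRIP. Its acRIP libraries lay above all IgG libraries, and its call was over input alone, at 1.06 ± 0.11. Zfp628, needed for the expression of spermatid genes, was highest in IgG, with 20, 16 and 20 counts in input, 76, 102 and 104 in IgG and 36, 26 and 28 in acRIP. It rose by 2.87 ± 0.33 in IgG over input (adjusted p = 7.1e-09) and fell by 1.56 from IgG to acRIP. Zfp418 had 4, 2 and 8 counts in input, 20, 20 and 16 in IgG and 0 in acRIP. It was called lower in acRIP than in both, with bounds of 6.03-fold below IgG and only 1.04-fold below input. Zfp703 rose by 2.03 ± 0.48 in IgG over input, and its fall from IgG to acRIP of -1.28 ± 0.48 lost its call without IgG library 1 (-1.22), IgG library 3 (-1.17), acRIP library 1 (-1.14) or acRIP library 3 (-0.95). Zfp365 on chromosome 10 had 4 counts in each input library and between 4 and 26 in the others, and its rises over input were lost without IgG library 3 for IgG (log2 fold change 1.69) and without acRIP library 2 for acRIP (1.95, both for Zfp365).

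Of the 20 members picked for a role known from other work, 19 were tested and 9 of these were called in at least 1 comparison: Zfp36, Zfp57, Zfp64, Zfp131, Zfp318, Zfp335, Zfp365 and Zfp628, described above, and Zfp85. Of the 192 tested members, 61 were called in none. Over IgG 2 of the 19 were higher (10.5%, against 11.5% of all tested genes) and 2 lower (10.5%, against 20.9%). Over input 4 were higher (21.1%, against 17.7%) and 2 lower (10.5%, against 22.9%). In IgG over input 3 were higher (15.8%, against 13.5%) and 2 lower (10.5%, against 7.22%). Zfp541 stayed under the fold threshold in each comparison, with 28.3, 27.3 and 27.8 FPKM in input, 26.6, 24.4 and 20.6 in IgG and 20.4, 19.8 and 20.6 in acRIP. Zfp42, known as the pluripotency marker Rex1 and also expressed in spermatocytes, stood on the log2 scale at 0.31 ± 0.12 over IgG and at 0.84 ± 0.12 over input. Zfp423, a cofactor in neural and adipose development, stood at -0.25 ± 0.08 over IgG and 0.12 ± 0.08 over input. Zfp568, which represses a placental Igf2 transcript, stood at -0.03 ± 0.33 and -0.02 ± 0.32 with between 36 and 102 counts per library. Zfp143, an activator at many promoters, lay just inside the fold threshold, with -0.86 ± 0.14 over IgG and -0.99 ± 0.14 over input, and Zfp59, a KRAB member, stood at -0.77 ± 0.14 and -0.86 ± 0.14. Zfp507 (-0.70 ± 0.12 over IgG), Zfp217 (-0.14 ± 0.07), Zfp536 (0.07 ± 0.16), and the RNA-binding protein Zfp106 (-0.09 ± 0.09) were not called in any comparison. Zfp85 stood at 0.99 ± 0.35 over IgG, and was called lower in IgG than in input at -1.08 ± 0.35 (edgeR adjusted p = 0.0096), a call lost without IgG library 1 (-0.98), IgG library 3 (-0.85), input library 2 (-0.92) or input library 3 (-0.99). Zfp708, with 10 counts in all, was not tested, and 96.4% of its exon bases lie in same-strand exons of other genes.

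Of all tested genes, 11.5% were higher and 20.9% lower over IgG, and 17.7% higher and 22.9% lower over input. By chromosome, the log2 fold changes of the tested members of chromosome 7 had a median of -0.02 over IgG, with 12 of 81 higher (14.8%) and 19 lower (23.5%). Over input their median was -0.23, with 15 higher (18.5%) and 26 lower (32.1%). On chromosome 17 the medians were -0.55 and -1.37, with 0 of 41 higher over IgG by edgeR or DESeq2 (5 with an unadjusted p under 0.05) and 20 lower (48.8%). Over input 4 of them were higher (9.76%) and 26 lower (63.4%). On chromosome 13 the medians were -1.34 and -1.60, with 3 of 27 higher (11.1%) and 15 lower (55.6%) over IgG and 2 higher (7.41%) and 15 lower (55.6%) over input. Chromosome 8 had medians of -0.24 and -0.21, with 2 of 24 higher (8.33%) and 7 lower (29.2%) over IgG. The 15 tested members of chromosome 2 had medians of -0.14 and -1.48, with 4 higher (26.7%) and 7 lower (46.7%) over IgG, and the 4 on chromosome 10 had 1 higher and 1 lower. With counts halved, to stand for pairs, the chromosome 2 median over input turned to 0.37. The differences between chromosomes were not tested, and chromosomes differed in the makeup of their members: the median GC of the merged exons was 48.1% on chromosome 7, 39.8% on chromosome 13 and 40.01% on chromosome 17. The GC of members with a KRAB box had a median of 41.9%, and that of members without, 53.0%.

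**Figure D4:**
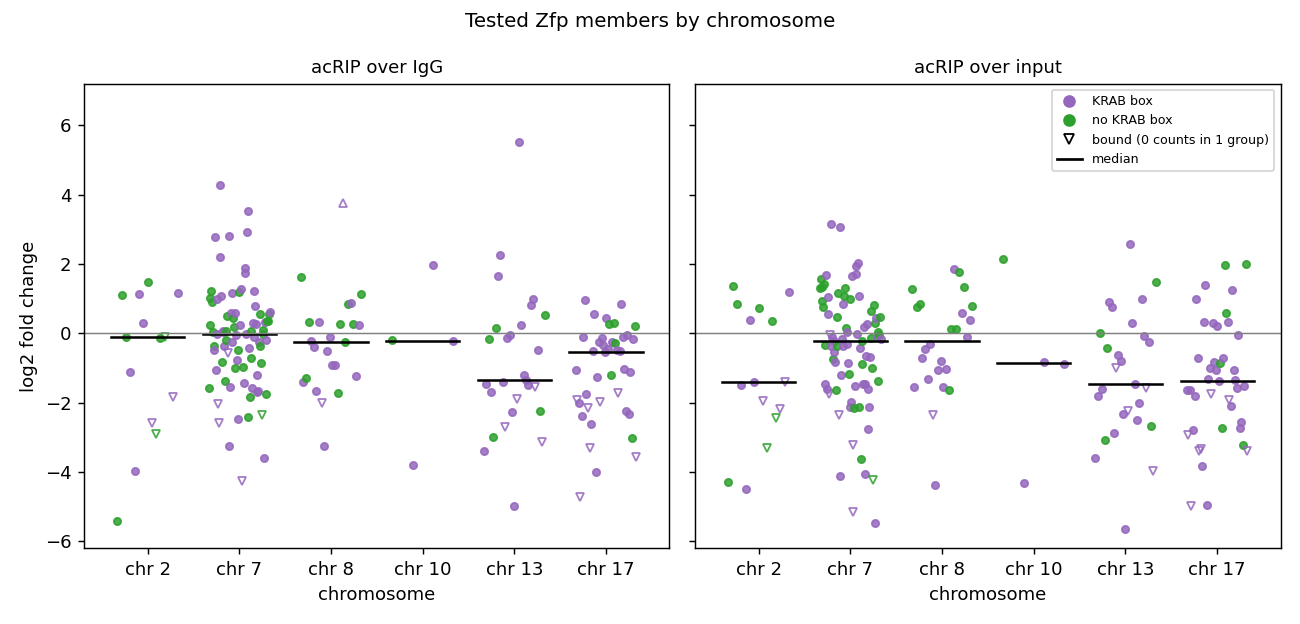
Log2 fold change of the tested members by chromosome, for acRIP over IgG (left) and acRIP over input (right), with KRAB members in purple and others in green. Open triangles are bounds where a group had 0 counts in every library, genes at 0 in both groups are left out, and lines are medians with genes at their bound. Most points of chromosomes 13 and 17 lie below 0, and those of chromosome 7 lie on both sides.

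With a KRAB box, 17 of 132 tested members were higher over IgG (12.9%, against 11.5% of all tested genes) and 55 lower (41.7%, against 20.9%). Over input 13 were higher (9.85%, against 17.7%) and 70 lower (53.0%, against 22.9%), and the medians over IgG and input were -0.44 and -1.06. Without it, 5 of 60 were higher (8.33%) and 14 lower (23.3%) over IgG, and 14 were higher (23.3%) and 15 lower (25.0%) over input, with medians of -0.06 and 0.23. Their lower shares were thus near those of all tested genes. Between IgG and input the split was 3 higher and 25 lower with a KRAB box, and 11 higher and 6 lower without. For the Zfp genes of the other chromosomes the medians over input were -0.56 for the 50 tested with a KRAB box and 0.01 for the 84 without. At a GC of 40% to 45%, 32 of 61 tested members were lower over input (median -1.06), beside 750 of 3244 other protein-coding genes (median -0.22), and at 50% to 65%, 8 of 45 members were (median 0.43), beside 1391 of 6949. Across the 192 tested members, GC and the log2 fold change over input had Pearson's r of 0.25 and Spearman's rho of 0.337, and over IgG 0.154 and 0.199. For the cytosine content of the exons, Spearman's rho was 0.3 over input and 0.154 over IgG. Between IgG and input, where the ac4C antibody took no part, it was 0.257. Among members with a KRAB box it was 0.14 over input and 0.124 over IgG, and among those without, 0.288 and 0.184. These describe genes measured in the same libraries, and no p-value is given.

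Clusters held members called in opposite directions, and the members and examples named here outside the naming rule were chosen after their values were seen. The cluster of 15 members from Zfp84 to Zfp146 on chromosome 7 (29768552 to 30169750) holds Zfp14, Zfp74 and Zfp383, which rose against both groups, Zfp566, and also Zfp940 and Zfp790, with no acRIP counts. Of its 14 tested members, 4 rose and 3 fell over IgG. Beside this and the counts of the clusters below, 11.5% of all tested genes rose and 20.9% fell over IgG. The chromosome 13 cluster of 19 KRAB members from Zfp712 to Zfp273 (67038596 to 67827002) had 2 members higher over IgG, Zfp712 and Zfp459, and 9 lower, such as Zfp953 with 119, 120 and 92 counts in input, 48, 48 and 44 in IgG and 2, 2 and 0 in acRIP. The ratio of Zfp953 to IgG was 0.0299 (95% counting interval 0.00804 to 0.0783). The chromosome 17 cluster of 23 members from Zfp160 to Zfp13 (21008903 to 23599487) had 0 higher over IgG by edgeR or DESeq2 (2 with an unadjusted p under 0.05) and 11 lower, and Zfp820 was its only member higher over input, at 1.39. The next cluster on that chromosome, of 11 members from Zfp871 to Zfp414, had 0 higher by edgeR or DESeq2 (1 with an unadjusted p under 0.05) and 6 lower over IgG.

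**Figure D5:**
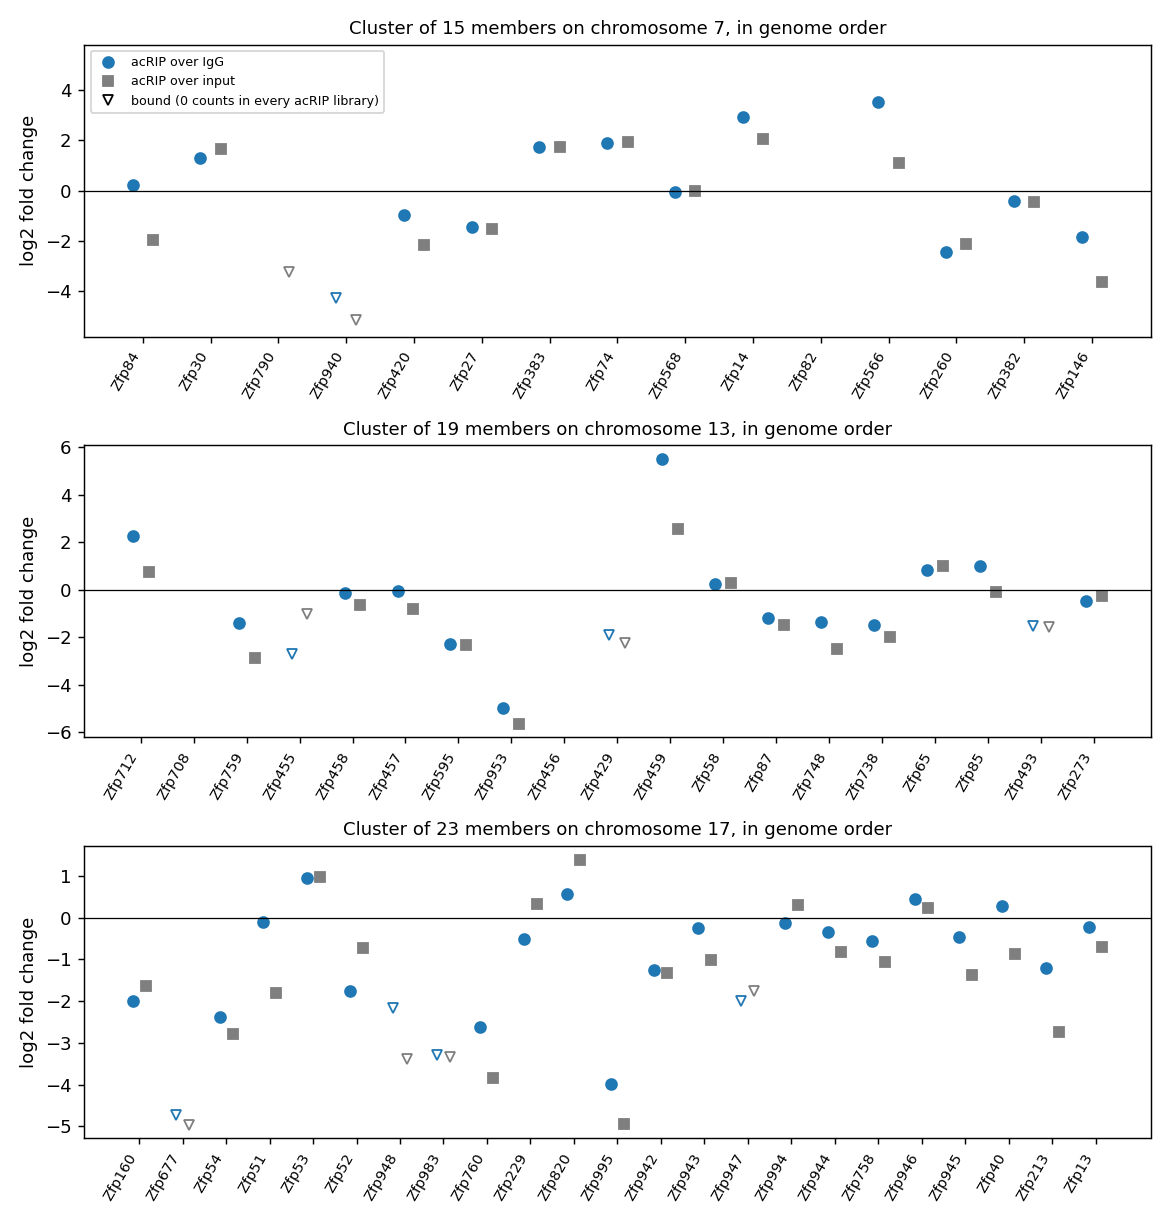
Log2 fold change of members in genome order in the 3 largest clusters, for acRIP over IgG (circles) and acRIP over input (squares). Open triangles are bounds for members with 0 counts in every acRIP library, and members with no marker were not tested. In the chromosome 7 cluster Zfp383, Zfp74 and Zfp14 lie above 0 and their neighbours Zfp940, Zfp420 and Zfp27 below it.

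The other genes of the KRAB pathway were a list of 31, all tested, of which 28 encode corepressors, chromatin proteins and DNA methyltransferases and 3 (Zfp445, Zfp809 and Zfp932) are KRAB zinc finger genes on other chromosomes. Of the 28, over IgG 1 was higher, Dnmt1, the maintenance DNA methyltransferase, at a log2 fold change of 1.23, and 3 were lower (10.7%, against 20.9% of all tested genes). Over input 6 were higher (21.4%, against 17.7%) and 3 lower (10.7%, against 22.9%). Of the 3 zinc finger genes, Zfp932 was lower over IgG, and Zfp809 and Zfp932 were lower over input. In IgG over input 8 of the 31 were higher (25.8%, against 13.5%) and 0 lower by edgeR or DESeq2, although 12 had an unadjusted p under 0.05 in the lower direction. Trim28, the adaptor that binds the KRAB box, had 1568, 1036 and 997 counts in input, 4193, 5809 and 5278 in IgG and 4051, 4953 and 4502 in acRIP. It was higher than input by 2.66 in IgG and by 2.55 in acRIP on the log2 scale, and acRIP and IgG differed by -0.11. Setdb1, with 0.76 over IgG and 0.55 over input, was not called. The median of the 28 over input was 0.11, beside -0.10 for all tested genes.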

How the data were processed

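Input, IgG and acRIP libraries (3 each) of mouse testis poly(A) RNA were compared. The authors trimmed reads with Trim Galore 0.6.7, aligned them to mm10 with STAR 2.7.10a and deposited raw counts of uniquely mapped reads per gene from featureCounts 2.0.2. Neither the annotation release nor the use of strand, nor whether pairs counted as 1 or 2, is given in the sources used here. The merged exon lengths of all 55401 genes equalled those of GENCODE vM21. No per-sample column was left unused.

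From the counts, edgeR 4.0.16 (R 4.3.3; filterByExpr, TMM, quasi-likelihood test, all 9 libraries in 1 fit) gave log2 fold changes, standard errors (SE) and Benjamini-Hochberg adjusted p-values over the 22510 genes tested. A call needed an adjusted p under 0.05 and a fold over 2. FPKM was computed from the counts, the deposited lengths and each library's total, and the FPKM + 1 rule was tested with limma 3.58.1. Fold bounds set 3 counts per library (or 6) for a library at 0, and do not cover molecules lost before amplification. C2H2 fingers and the KRAB A box were found by pattern in the coding sequences (Python 3.11.15), and repeated windows are 100-base exon windows with another exact copy. The fits were tested on simulated data. Counts limit the precision of single genes. Intervals cover counting error only, and are too narrow if both mates of a pair were counted.

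The text names every member called higher than both groups, the 5 highest and 5 lowest called members per comparison whose groups do not overlap, the 10 highest in input, the highest per chromosome, members with at least 10 counts in every input library and none in acRIP, and 20 members with a known role. The members and lists were chosen with earlier results of these data known. DESeq2 1.42.0, other scalings and filters, halved counts, a test against a fold of 2, a replicate block and leaving out each library were run as alternatives.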

Additional observations from a re-analysis of the deposited data

How the results depend on the processing

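Counts of called members stayed within 1.5 times of those reported under most alternatives. Tested against a fold of 2, the members called higher were 12 for acRIP over IgG, 16 for acRIP over input and 5 for IgG over input, those lower in IgG than in input were 13, and 7 were higher than both. DESeq2 shared 22 of the 22 higher and 68 of the 69 lower calls over IgG. The FPKM rule passed 10 members with a pseudocount of 0.1 and 0 with a ratio over 5 against IgG. The median log2 fold change over IgG was -0.23 with DESeq2, RLE scaling, halved counts or no filter, -0.16 in a fit of the 6 libraries compared and -0.21 with upper quartile scaling, and leaving out 1 library gave -0.33 to -0.25. Over input it was -0.82 with DESeq2, -0.57 with halved counts and -0.86 with no filter. For IgG over input it was -0.32 with no filter and -0.35 with upper quartile scaling, and -0.32 to -0.21 without 1 library. The median turned positive on chromosome 2 over input with halved counts (0.37), on chromosome 7 over IgG in the fit of 6 libraries (0.071), with upper quartile scaling (0.016) and without acRIP library 1 (0.025) or 2 (0.004), and on chromosome 10 over IgG without IgG library 3 (0.146). Leaving out 1 library gave -0.098 to 0.025 on chromosome 7 and -0.458 to 0.146 on chromosome 10. Leaving out 1 library gave 22 to 26 higher and 64 to 69 lower members over IgG, and 60 to 64 lower than both. Deviations of libraries of the same number had correlations of -0.007 to 0.035. These cannot decide whether such libraries share a source, because other differences between libraries can hide it. With a replicate block 24 members were higher and 68 lower over IgG and 12 higher and 64 lower than both. Depth limits the members with few counts, most of all the 44 tested ones with a mean under 30.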

Other observations

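Other zinc finger families were measured in the same fit. Zbtb genes pair a BTB domain with zinc fingers, and 38 were tested. Over IgG, 5 rose in acRIP (13.2%, against 11.5% of all tested genes) and 4 fell (10.5%, against 20.9%). Over input, 11 rose (28.9%, against 17.7%) and 8 fell (21.1%, against 22.9%), and the medians over IgG and input were 0.01 and 0.08. Of 16 tested Klf genes, which encode Krüppel-like factors, 4 were lower than both IgG and input (25%, against 17% of all tested genes), 4 were higher over input (25%, against 17.7%) and 4 were higher in IgG over input (25%, against 13.5%). Of 10 tested Zscan genes, which carry a SCAN domain, 2 were higher (20%) and 4 lower (40%) over IgG and 3 were lower than both (30%). Of 10 tested Zkscan genes, with a SCAN domain and a KRAB box, 2 were higher (20%) and 3 lower (30%) over IgG and 3 were lower than both (30%). With 10 genes each, these shares are coarse beside the 11.5%, 20.9% and 17% of all tested genes.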
